A study of Homo sapiens with 2 samples.

Results

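The MAP kinase cascade genes are the kinases named MAPK, MAP2K, MAP3K and MAP4K with a number. They were chosen by name alone, at any level, from the 25105 genes of the deposited gene table, and 39 genes fit. Of these, 4 are MAP4K genes, 17 MAP3K genes, 7 MAP2K genes and 11 MAPK genes. Their m6A peaks were taken from the deposited peak list by gene ID, which gave 164 of 49746 peaks. MAP4K1, MAP3K19, MAPK10 and MAPK15 are not among the 39.

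The cells were Huh-7, a cell line established from a hepatocellular carcinoma (liver cancer) of human origin, of wild-type genotype and without treatment. N6-methyladenosine (m6A) is a methyl mark on adenosines inside mRNA. Total RNA was freed of ribosomal RNA and cut into fragments. Of the libraries, 1 (the IP) came from fragments bound by an antibody to m6A and 1 (the input) from the fragmented RNA without that step. Both come from the same cell line, so the contrast is between antibody-bound and total fragments, and no condition is compared. With 1 library of each kind there is no replicate and no test, and the depth of both is unknown because the files hold no read counts.

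A MAP kinase cascade passes a signal down a chain of protein kinases. A MAP4K can start it, a MAP3K phosphorylates a MAP2K, the MAP2K phosphorylates both a threonine and a tyrosine in the activation loop of a MAPK, and the MAPK then acts on transcription factors and other kinases. In liver cells the ERK branch answers growth factors, and the JNK and p38 branches answer stress and inflammatory signals. m6A in mRNA is read by proteins that affect how the transcript is spliced, translated and degraded, and it is most often found near the stop codon and in the 3' UTR, at adenosines followed by a cytosine.

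A few of the peaks reached the start of a transcript, where sequence could be shown. RefSeq windows of the first 50 transcribed bases (GRCh38.p14) were held for 36 of the 39 genes, and 9 genes had a peak of their own over such a window. The 4 stretches below are those of the 9 that hold GGAC, a common core of the m6A consensus, in capitals, searched on the transcribed strand only. They are shown because a listed peak covers the motif itself. GGAC stood in the first 50 bases of 18.9% of all 35116 windows of the table, and a match is a description of these letters, not a mapped site.
MAPK12: gGGACatccctgagggaagggccgggagcg
MAPK8: agcggccgaggccGGACgacgcggcttgga
MAP3K3: ggtggagaacggtggccGGACggagagact
MAP2K5: tgcagcctgggagGGACactgtggcagagc

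The MAPK12 stretch is the minus strand of chr22:50261654-50261683 and lies under a 5' UTR peak with a log2 fold of IP over input of 1.87 (adjusted p 1.77e-06). That of MAPK8 is the plus strand of chr10:48306689-48306718, under a 5' UTR peak of 1.60 (adjusted p 0.0208). The MAP3K3 stretch, plus strand of chr17:63622437-63622466, lies, motif included but without its first few bases, under a peak of 1.82 (adjusted p 4.11e-05) that spans 10317 nt. The MAP2K5 stretch, plus strand of chr15:67549105-67549134, lies a few bases after a transcript start inside the gene. It is under a peak of 1.48 (adjusted p 0.000331) that spans 36722 nt. The span of a peak counts all bases between its edges, introns included, so these long peaks cover far more than the window. MAP3K11, MAP3K21, MAP3K9, MAPK14 and MAPK6 also had a peak over their window, with no GGAC in those 50 bases. Antibodies to m6A also bind m6Am, a related mark on the first nucleotide after the cap, and these peaks cannot tell the marks apart.

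Input levels ranged widely within every tier (the plot of input levels by gene). The gene table gives the level as FPKM, fragments scaled to transcript length and library size, which sets genes side by side per length. Of the 39 genes, 33 stood at 1 FPKM or more, the minimum used here for an expressed gene. The MAP2K tier was the highest by median, at 7.81 FPKM, and its lowest member, MAP2K5, stood at 3.02 FPKM. The median was 4.89 FPKM for MAPK, 3.93 for MAP4K and 2.09 for MAP3K, beside 3.56 for the 14114 coding genes of the table. The highest single member was MAP4K4 at 33.8 FPKM. Liver cell transcripts were abundant in the same library, with AFP at 2380 FPKM, ALB at 1202 and HNF4A at 55.1. Of the other cell types' markers, COL1A1 stood at 0.159 FPKM, and PDGFRB, PECAM1 and COL1A2 between 1.17 and 1.46.

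**Figure D1:**
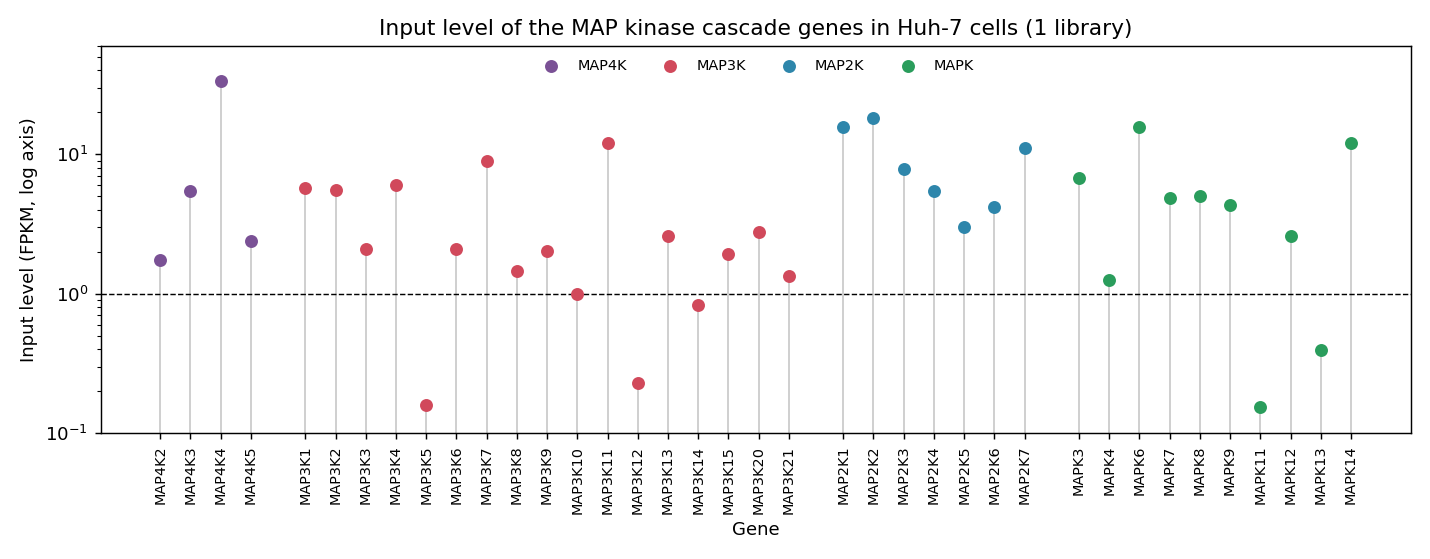
Input level of 38 of the genes in FPKM on a log axis, 1 point per gene from 1 library, coloured by tier, with a dashed line at 1 FPKM. MAP4K4 (33.8 FPKM) stands highest, and all 7 MAP2K genes lie above 3 FPKM.

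At least 1 peak was listed for 37 of the 39 genes (94.9%), beside 84.2% of coding genes at any level. At 1 FPKM or more the shares were 32 of 33 members and 96.3% of coding genes, so having a peak was as usual among these kinases as among expressed coding genes. A peak of 4-fold or more (log2 fold of 2 or more) was listed for 21 members (53.8%), beside 39.2% of coding genes. With members at 1 FPKM or more it was 18 of 33 (54.5%), beside 40.7%. Requiring in addition an adjusted p under 0.001 left 18 members, beside 35.0% of coding genes, and 16 of the 33 expressed members, beside 38.1%. A peak that both reached 2-fold and had an adjusted p under 0.001 was listed for 24 members, beside 58.2% of coding genes, and for 21 of the 33 expressed members, beside 67.6%. The share of members was thus above the background for 4-fold peaks and close to it for supported peaks of 2-fold. Members also had more peaks per gene, a median of 3 beside 2 for coding genes, and 4 beside 3 at 1 FPKM or more. Peak number was not matched, and its part in the 4-fold shares was not tested. These folds and p-values were computed by the authors peak by peak and are used only for description and ranking inside that list.

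Each gene is described below by its strongest peak, the one with the highest log2 fold. The median over the 37 members with a peak was 2.15, beside 1.90 over the 11891 coding genes with a peak. The quartiles of the members were 1.55 and 2.60. For 14 of the 37 the strongest peak had an adjusted p of 0.001 or more, and for MAP3K14 it was 0.0521. A strongest peak is a maximum over 1 to 12 peaks, and the median of all 164 peaks was 1.02, beside 1.04 over all peaks of coding genes.

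By tier, the strongest peaks were highest in MAP3K (median 2.34) and lowest in MAP4K (1.65), with MAPK at 2.04 and MAP2K at 2.00. A 4-fold peak was listed for 11 of 17 MAP3K genes, 6 of 11 MAPK genes, 3 of 7 MAP2K genes and 1 of 4 MAP4K genes. These shares were 64.7%, 54.5%, 42.9% and 25.0%, beside 39.2% of coding genes, so MAP2K was close to that background. With an adjusted p under 0.001 the counts were 11, 5, 2 and 0 in the same order, beside 35.0% of coding genes. The tiers overlap in their values, since every strongest peak of the other tiers lies between those of MAPK9 (0.83) and MAPK11 (6.61). When a gene was given the median of its peaks instead, the MAP3K median was 1.18, the MAPK median 1.13, the MAP4K median 1.11 and the MAP2K median 0.89, so the gap between MAP3K and MAPK shrank from 0.30 to 0.049.

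**Figure D2:**
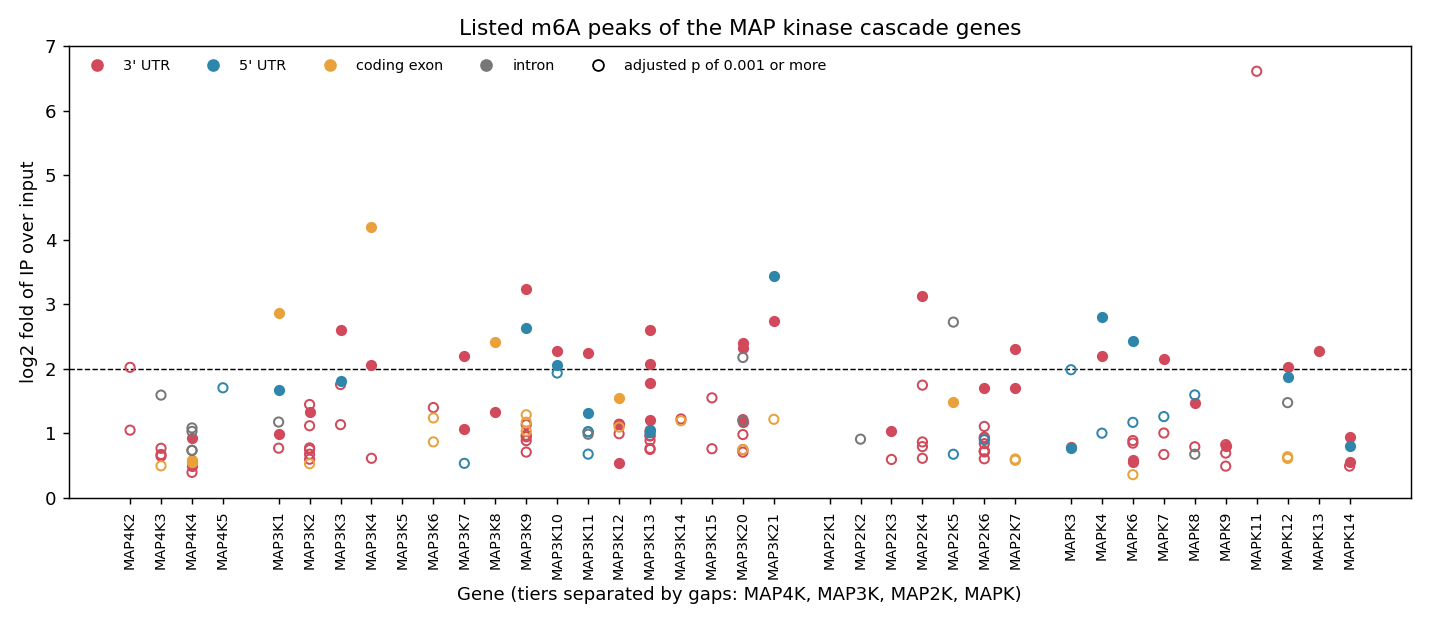
Log2 fold of IP over input of 161 listed peaks of 38 of the genes, 1 point per peak, by gene and tier. Colour gives the region, open points have an adjusted p of 0.001 or more, and the dashed line marks 4-fold. MAP3K4 reaches 4.19 with a filled point, the MAPK11 point at 6.61 is open, and MAP3K5 and MAP2K1 have none.

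At the top of the cascade, all 4 MAP4K genes had a peak and none had one that both reached 2-fold and had an adjusted p under 0.001. Such a peak was listed for 58.2% of coding genes. MAP4K4, a kinase that acts upstream of JNK, had 10 peaks at 33.8 FPKM. Its strongest, in an intron, stood at a log2 fold of 1.09 (adjusted p 0.0338), and its best-supported, in the 3' UTR, at 0.93 (adjusted p 1.03e-40). MAP4K2 had the highest value of the tier, 2.02, in the 3' UTR (chromosome 11, 64787993 to 64788142, adjusted p 0.0292). MAP4K5 followed with its single peak, 1.71, listed as 5' UTR and spanning 27479 nt (chromosome 14, 50504955 to 50532433, adjusted p 0.00245). MAP4K3, a kinase tied to amino acid sensing, had 5 peaks, led by 1.59 in an intron, a peak of 100 nt (adjusted p 0.0222). Of the 18 peaks of the tier 12 were under 2-fold, beside 16 of 25 in MAP2K, 23 of 39 in MAPK and 28 of 82 in MAP3K. The median log2 fold over all peaks of coding genes was 1.04, itself close to 2-fold. MAP4K4 alone held 10 of the 18, and 5 of the 18 lay in introns.

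Among the MAP3K genes the strongest peak of all belonged to MAP3K4, or MEKK4, which feeds the JNK and p38 branches in response to stress. Its log2 fold was 4.19 at a level of 6.07 FPKM, in a peak listed as coding exon (chromosome 6, from 161034393 to 161073345) with an adjusted p listed as 0. This peak spans 38953 nt with introns counted, and without peaks longer than 10000 nt the strongest of the gene was 2.06, in its 3' UTR. MAP3K4 lay above 98.4% of the coding genes with a peak in its decile of input level. MAP3K1 (MEKK1), an activator of the JNK branch, had 2.87 in a coding exon (adjusted p 2.44e-111). MAP3K3 (MEKK3) had 2.60 in the 3' UTR (adjusted p 3.11e-29). MAP3K2 (MEKK2), the closest relative of MAP3K3 and 2.66 times as abundant, had 8 peaks but none above 1.45. The 4 MEKK genes therefore ran from 1.45 to 4.19 at levels of only 2.09 to 6.07 FPKM.

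The mixed lineage kinases MLK1 to MLK4 (MAP3K9, MAP3K10, MAP3K11 and MAP3K21), MAP3K activators of JNK, were high as a group. MAP3K21 had a log2 fold of 3.44 in the 5' UTR on chromosome 1 from 233327724 to 233328198, which begins at the first base of the gene (adjusted p 8.62e-09). MAP3K9 had 3.24 in the 3' UTR (adjusted p 8.65e-56) and 2.63 in the 5' UTR (adjusted p 4.15e-19). MAP3K10, at 0.989 FPKM, had 2.28 in the 3' UTR, and MAP3K11, at 12.1 FPKM, had 2.25 there (adjusted p 1.55e-209). All 4 thus passed 4-fold with an adjusted p under 0.001, across a range of levels from 0.989 to 12.1 FPKM. Such a peak was listed for 35.0% of coding genes.

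The ASK kinases, MAP3K genes that answer oxidative stress, had weak or no peaks. MAP3K5, or ASK1, stood at 0.160 FPKM and had no peak. MAP3K6 (2.10 FPKM) had 1.40 and MAP3K15 (1.93 FPKM) had 1.55, both in the 3' UTR and with adjusted p-values of 0.0172 and 0.0358. Neither gene had a peak with an adjusted p under 0.001.

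Of the single-member branches of the MAP3K tier, MAP3K7 alone lay between the ASK kinases and the group of MAP3K9, MAP3K10, MAP3K11 and MAP3K21. MAP3K7, or TAK1, which carries signals from TGF-beta and inflammatory receptors, had 2.20 in the 3' UTR at 8.92 FPKM (adjusted p 8.99e-78). MAP3K8, or TPL2, which activates the ERK branch downstream of inflammatory receptors, had 2.41 at 1.46 FPKM in a peak listed as coding exon that spans 11333 nt, without which its strongest was 1.33. MAP3K20, or ZAK, a sensor of stalled ribosomes, had 10 peaks and a highest value of 2.40 in the 3' UTR. MAP3K14, or NIK, the kinase of the non-canonical NF-kappaB pathway, stood at 0.824 FPKM and its peaks reached only 1.22, where its antisense gene MAP3K14-AS1 had a peak of 3.04 on the other strand, whose part in that value was not tested.

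MAP3K13, also called LZK, had the most peaks of any member, 12, of which 10 were listed as 3' UTR and 2 as 5' UTR. The highest 2, at log2 folds of 2.60 and 2.07, lay on chromosome 3 from 185480366 to 185483415 and from 185484266 to 185484865, in the last part of the gene. Downstream of these, peaks of 1.04 (185484966 to 185485165), 0.75 (185485816 to 185485965), 1.21 (185486491 to 185487440) and 0.97 (185488341 to 185488715) followed. All 6 overlapped a peak of 2.68 that the list gives to TMEM41A on the other strand, from 185480216 to 185492324, and the part of this overlap in their values was not tested. Upstream lay peaks of 1.78 (185451417 to 185477355) and 1.06 (185363349 to 185443530). The latter overlapped peaks of 2.39 and 0.76 listed for RPL4P4 on the other strand, whose part in its value was not tested either. Further upstream stood 0.89 (185328927 to 185329226), and near the start of the gene 0.77 (185292608 to 185292932), 0.96 (185292033 to 185292132) and 1.01 (185285439 to 185291957). Those of 0.89, 0.77 and 0.96 were also listed as 3' UTR, though they lay 22.4%, 4.77% and 4.43% along the gene. The listed label thus does not always place a peak at the 3' end of the gene. Its relative MAP3K12, or DLK, at 0.228 FPKM had 6 peaks up to 1.55 in a coding exon.

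In the MAP2K tier the kinases of the ERK branch had weaker listed peaks than those of the JNK branch. MAP2K1, or MEK1, had no listed peak at 15.7 FPKM, although 97.3% of coding genes in its decile of level had one. Within its span the list holds peaks only on the other strand, given to SNAPC5 (1.09) and AC116913 (2.16). MAP2K2, or MEK2, at 18.3 FPKM, had a single peak of 0.91 in an intron (adjusted p 0.00385). MAP2K4 and MAP2K7, which both activate JNK, passed 4-fold. MAP2K4 had 3.13 in the 3' UTR at 5.50 FPKM (chromosome 17, 12129159 to 12142271, adjusted p 5.44e-204). That peak spans 13113 nt, and without peaks longer than 10000 nt the strongest of MAP2K4 was 0.87, no longer above the 0.91 of MAP2K2. MAP2K7 had 2.31 in the 3' UTR at 11.1 FPKM (adjusted p 2.72e-83), and this peak overlapped one of 1.99 listed for AC010336 on the other strand.

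The p38-activating pair lay between, with MAP2K6 at 1.70 (adjusted p 2.74e-06) and MAP2K3 at 1.04 (adjusted p 3.12e-14), both in the 3' UTR. MAP2K6 had 10 peaks, 9 of them listed as 3' UTR, but only 1 with an adjusted p under 0.001. MAP2K5, or MEK5, the activator of ERK5, had 2.72 in an intron on chromosome 15 from 67546385 to 67546484 with an adjusted p of only 0.0143. Its best-supported peak stood at 1.48 in a coding exon. The MAP2K median of 2.00 fell to 1.70 when only peaks with an adjusted p under 0.001 were counted, and to 1.37 without peaks that overlap one on the other strand.

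In the MAPK tier, MAPK3, which encodes ERK1, stood at 6.76 FPKM and had 1.99 in the 5' UTR (adjusted p 0.00236), while its peaks with an adjusted p under 0.001 reached only 0.79. It lay above 59.0% of the coding genes with a peak in its decile of level.

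The atypical kinases ERK3 and ERK4, which lack the usual threonine and tyrosine motif, had the highest well-supported values of the tier. MAPK6 (ERK3) had 2.43 at 15.8 FPKM, in a peak listed as 5' UTR with an adjusted p listed as 0, while its 4 peaks in the 3' UTR reached only 0.89. The 5' UTR peak spans 12622 nt, and without peaks longer than 10000 nt the strongest of MAPK6 was 0.89. MAPK4 (ERK4), at 1.24 FPKM, had 2.80, also listed as 5' UTR, on chromosome 18 from 50663628 to 50669323 (adjusted p 4.12e-22), and 2.19 in the 3' UTR (adjusted p 3.85e-21). MAPK7, or ERK5, had 2.15 in the 3' UTR at 4.89 FPKM (adjusted p 4.13e-95). These 3 MAPK genes outside the classical ERK, JNK and p38 groups all had a 4-fold peak with an adjusted p under 0.001. Without peaks longer than 10000 nt, only MAPK4 and MAPK7 of them did. Such a peak, of any length, was listed for 35.0% of coding genes and 38.1% of those at 1 FPKM or more. Among the p38 genes, MAPK12 and MAPK13 also had such a peak.

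The JNK genes were expressed at like levels, with MAPK8 (JNK1) at 5.03 FPKM and MAPK9 (JNK2) at 4.34. MAPK8 had 1.60 in the 5' UTR, the peak of the sequence shown above, and 1.47 in the 3' UTR with better support (adjusted p 1.32e-05). MAPK9 had 4 peaks, all listed as 3' UTR, of which the strongest was 0.83 (adjusted p 0.00932). It lay above only 5.72% of the coding genes with a peak in its decile, the lowest rank of any member. MAPK10, the neuronal JNK3, has no input level here and is not counted, but the list holds 1 peak of 4.46 for it, in the 3' UTR (chromosome 4, 86000391 to 86000965, adjusted p 1.26e-18).

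The 4 p38 genes differed most in level. MAPK14, the main p38 alpha, stood at 12.0 FPKM and had 4 peaks up to 0.94 (adjusted p 1.22e-08). MAPK12, p38 gamma, at 2.59 FPKM had 2.04 in the 3' UTR (adjusted p 1.45e-22) and 1.87 in the 5' UTR. MAPK13, p38 delta, at 0.397 FPKM had 2.28 in the 3' UTR (adjusted p 0.000407). MAPK11, p38 beta, had the highest log2 fold of all members, 6.61, in the 3' UTR (chromosome 22, 50263913 to 50264037). That peak was only 125 nt long, its adjusted p was 0.00198, and the gene stood at 0.153 FPKM, the lowest level of any member. The peak drops out when an adjusted p under 0.001 is asked for.

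Level and peak strength ran against each other across these genes (the plot of strongest peak against input level). Over the 37 members with a peak Spearman's rho was -0.32, beside -0.33 over 10144 coding genes at 1 FPKM or more with a peak. The members include genes under 1 FPKM, such as MAPK11, and the coding genes do not, so the sets are unlike in level. Both values are descriptions across genes of 1 pair of libraries, and the fold shares the input library with the level. Each member at 1 FPKM or more was therefore also set against the median strongest peak of the coding genes in its decile of level, which fell from 2.21 in the lowest decile to 1.09 in the highest. Of 32 members with a peak, 18 (56.2%) lay above that median, beside 50.0% of coding genes. By tier it was 10 of 13 MAP3K genes, 5 of 9 MAPK genes, 3 of 6 MAP2K genes and 0 of 4 MAP4K genes. The 4 MAP4K genes were still near the middle of their deciles, from percentile 34.1 (MAP4K5) to 49.7 (MAP4K4). Among others, MAPK9, MAPK14, MAP2K2, MAP2K3 and MAP3K6 lay under the 25th percentile of their decile, and MAP3K4, MAP3K21, MAP2K4, MAP3K9, MAP3K1 and MAPK6 over the 75th.

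**Figure D3:**
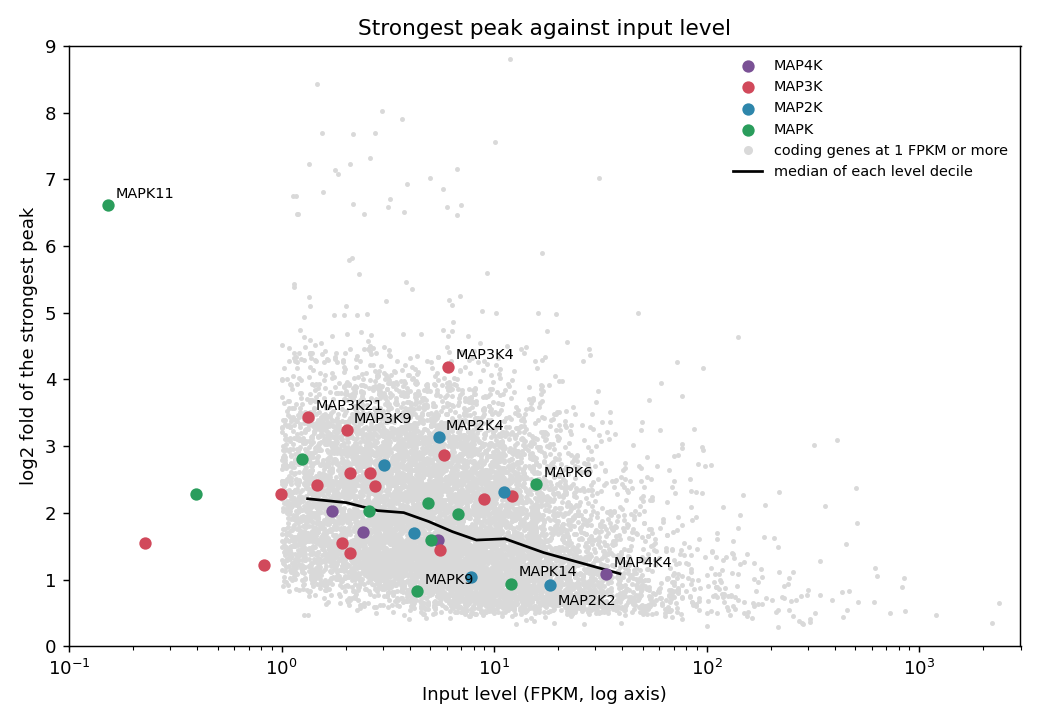
Log2 fold of the strongest peak against input level in FPKM on a log axis for 36 members with a peak, coloured by tier. Grey points are coding genes at 1 FPKM or more with a peak, and the line joins the medians of their 10 level deciles. MAP3K4 (4.19) lies far above the line, and MAPK9 (0.83) below it.

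The regions of the peaks differed in share from tier to tier (the plot of regions). Of the 164 peaks 100 (61.0%, exact 95% interval 53.1 to 68.5%, counting error only) were listed as 3' UTR, beside 55.6% of peaks of coding genes. Peaks of 1 gene share their source, so the interval is too narrow. Coding exons held 14.6%, beside 23.6%, and 5' UTRs 16.5%, beside 14.0%. The share of 5' UTR peaks was 28.2% in MAPK, 15.9% in MAP3K, 8.00% in MAP2K and 5.56% in MAP4K. The MAP4K tier had 27.8% of its 18 peaks in introns, most of them in MAP4K4. Of the 29 peaks at 4-fold or more, 19 were in 3' UTRs, 5 in 5' UTRs, 3 in coding exons and 2 in introns. Strongest peaks in 5' UTRs belonged to MAPK3, MAPK4, MAPK6, MAPK8, MAP3K21 and MAP4K5, so 4 of these 6 were MAPK genes. The 6 came from 37 members with a peak, a share like that of coding genes, 1931 of 11891. Their adjusted p was 0.00236 for MAPK3, 0.0208 for MAPK8 and 0.00245 for MAP4K5. The peak of MAPK6 spans 12622 nt and that of MAP4K5 27479 nt. Those of MAPK4 and MAP3K21 were shorter (5696 and 475 nt) and better supported (adjusted p 4.12e-22 and 8.62e-09).

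**Figure D4:**
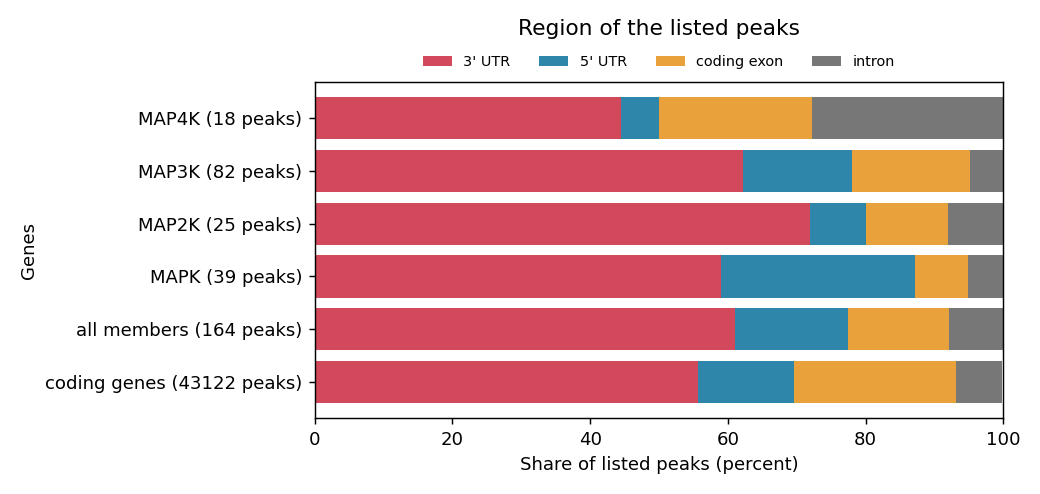
Share of listed peaks in 3' UTRs, 5' UTRs, coding exons and introns for each tier, all 39 members and all coding genes, as stacked bars from 0 to 100%. The 5' UTR share is 28.2% in MAPK and 5.56% in MAP4K, and the intron share is 27.8% in MAP4K.

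Measured along each gene from start to end, 75 of the 164 peak midpoints (45.7%) lay in the last 10%, beside 35.6% of the midpoints inside coding genes. The first 10% held 13 peaks, a share of 7.93%, beside 8.25%. The share in the last 10% was 51.3% in MAPK, 48.0% in MAP2K, 45.1% in MAP3K and 33.3% in MAP4K. The spans include introns, and members were longer genes, with a median span of 80.6 kb beside 32.8 kb for coding genes, and span was not matched. Across the 39 genes the number of peaks and the span had a Spearman's rho of 0.22.

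**Figure D5:**
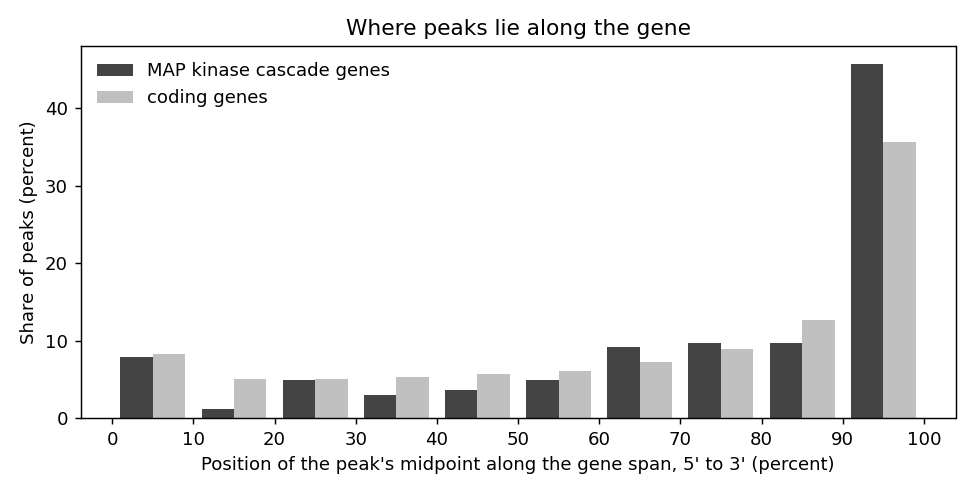
Share of peak midpoints in each 10% of the gene span, from the 5' to the 3' end, for the 164 peaks of the MAP kinase cascade genes (dark) and for the peaks of coding genes (light), of midpoints inside the span. The last 10% holds 45.7% of the kinases' peaks.

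Other genes of the pathway were counted in 5 lists, to be read beside the coding genes. Of these, 39.2% had a 4-fold peak (40.7% at 1 FPKM or more), and the median strongest peak was 1.90 (1.77 at 1 FPKM or more). In 4 of the 5 lists the median lay below 1.90. Most listed genes stood at 1 FPKM or more. Beside 1.77, the RAS and RAF median was close and that of the kinases activated by MAPKs lay above. Of 10 RAS and RAF pathway genes listed, 9 had a level, all 9 had a peak, 3 had a 4-fold peak and the median strongest peak was 1.76. SOS1, an exchange factor that activates RAS, had 2.35, and NRAS, a RAS protein, had 0.70. Of 12 scaffolds and adaptors with a level all 12 had a peak and 4 a 4-fold one (median 1.51), led by TAB2, a partner of MAP3K7, at 4.15, and TAB1 at 2.47, with LAMTOR3 at 0.94 and SPAG9 at 0.88 lowest. Of 10 kinases activated by MAPKs 9 had a peak and 4 a 4-fold one (median 1.79). RPS6KA2 had 6.22 at only 0.0711 FPKM, MAPKAPK2 3.08, MKNK1 1.18 and RPS6KA4 1.07. Of 7 related kinases named outside the rule, all 7 had a peak and 2 a 4-fold one (median 1.72), with TAOK3 at 2.14, TAOK1 at 2.04, TNIK at 1.38 and NLK at 1.18.

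The MAPK phosphatases, which remove the activating phosphates, had the highest median of the 5 lists, 2.43 over 9 of 10 with a peak, and 6 had a 4-fold peak. DUSP1 led at 3.82 and DUSP8 at 3.55, with DUSP4 at 1.29 and DUSP9 at 0.74 lowest. The strongest peaks of DUSP5 (3.02 at 45.1 FPKM) and DUSP6 (2.86 at 13.1 FPKM) stood in the 3' UTR, and that of DUSP6 overlapped a peak on the other strand.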

How the data were processed

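Per the labels' protocols, RNA of Huh-7 cells was depleted of ribosomal RNA, fragmented and bound with an m6A antibody, and strand-marked libraries were sequenced in pairs. The submitters' processing notes name, with no role for any of them, edgeR, StringTie, HOMER, HISAT2, FastQC and fastp. The peak caller, its settings, the genome build and the scaling of the IP to the input were not given in the sources used here. Per the file headers, the deposited peak list gives for each peak the log2 of its fold (IP against input), its p-value and an adjusted p. The deposited gene table gives, per the file headers, the FPKM of the input library. The largest listed p was 0.0500, and the adjusted p reached 0.0635.

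Peak starts were found to count from 0 and were raised by 1: as listed, 2729 peaks began 1 base before their gene's start and 0 at it. Peak spans are given as end minus listed start, 1 nt less than the deposited length. A gene edge was identical to that of RefSeq GRCh38.p14 for 30 of the 39 members, and coordinates are printed from the files. Peaks were joined by gene ID. Coding genes are those RefSeq lists as protein-coding, matched by Ensembl ID, symbol or synonym (19521 of 25105 genes matched). Level deciles were cut over 10536 coding genes at 1 FPKM or more. With 1 library of each kind no test was run. The members and lists were chosen with earlier results of these data known. Members are named one by one except for 1, which is counted but, like a few genes of the lists, not reported here; positions are given for the strongest peak of the 2 highest members of each tier and for all peaks of the member with the most. The per-gene summary was tested on simulated data. Python 3.11.15, pandas 2.3.3 and SciPy 1.17.1 were used.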

Additional observations from a re-analysis of the deposited data

How the results depend on the processing

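No paired analysis was possible because there is 1 library of each kind. The number of members with a peak (37) was 29 with adjusted p under 0.001 and 32 at 1 FPKM or more, and 37 both when joined by symbol and without peaks overlapping the other strand. The number with a 4-fold peak (21) was 18, 18, 19 and 18 with adjusted p under 0.001, at 1 FPKM or more, without other-strand overlap and without peaks longer than 10000 nt, the last losing MAP3K8, MAP2K4 and MAPK6. Median log2 folds of the strongest peak follow as all members, MAP4K, MAP3K, MAP2K, MAPK, and MAP3K minus MAPK. With adjusted p under 0.001 they were 2.25, 0.93, 2.41, 1.70, 1.75 and 0.66, the MAP4K value resting on 1 gene. At 1 FPKM or more those that moved were 2.09 (all members), 2.41 (MAP3K), 1.99 (MAPK) and 0.42 (difference). At 5 FPKM or more they were 1.79, 1.34, 2.25, 1.67, 1.60 and 0.65, resting on only 2 MAP4K, 5 MAP3K, 4 MAP2K and 5 MAPK genes. Without other-strand overlap those that moved were 2.02 (all members), 2.26 (MAP3K), 1.37 (MAP2K) and 0.23 (difference). Without peaks longer than 10000 nt they were 2.01, 1.59, 2.22, 1.37, 1.99 and 0.24. With the median of a gene's peaks they were 1.13, 1.11, 1.18, 0.89, 1.13 and 0.049. The MAP3K median was thus above the MAPK median under each of these 6 alternatives; the cause of the shifts was not tested. The 3' UTR share of member peaks was 65.6% with adjusted p under 0.001 and 52.9% among peaks of 2-fold or more. At 1 FPKM or more the median level was 2.60 FPKM in MAP3K and 5.03 in MAPK. Read depth is unknown, so folds of genes at low level cannot be given a counting error.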
